A study of Mus musculus with 4 samples.

Results

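The genes described here are 10 genes of MHC class I antigen presentation, taken as a named list from the 30450 genes measured in all 4 libraries: the classical heavy chains H2-K1 and H2-D1, the nonclassical heavy chains H2-Q4, H2-Q6, H2-Q7, H2-T22 and H2-T23, and the light chain and peptide loading genes B2m, Tap1 and Tapbp. All 10 had a row in every library. The genes were chosen by their KO and WT levels in these same libraries, so the KO over WT values below describe the libraries and support nothing further. Single endothelial cells were profiled with the 10x Chromium system from aorta and left lung lobe of female Apoe knockout mice of an endothelial lineage tracing line, of the strain labelled C57/B6J, after 5 weeks of Western diet. The KO aorta and KO lung came from 3 mice whose endothelial cells lacked Oct4 (EC-Oct4Δ/Δ; gene symbol Pou5f1), and the WT aorta and WT lung from 2 mice with intact Oct4 (EC-Oct4+/+). All groups shared the Apoe knockout, the diet, the eYFP lineage label, for which Cdh5-negative littermates set the sorting gate, and actinomycin D, a blocker of transcription, at 1 µg/mL in the digestion buffers. The age of the mice was not given.

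MHC class I molecules carry peptides from inside the cell to its surface, where T cells and natural killer cells inspect them. A heavy chain pairs with the light chain beta-2 microglobulin, encoded by B2m. Tap1 encodes a subunit of the transporter that brings peptides into the endoplasmic reticulum, and Tapbp encodes tapasin, which holds an empty class I molecule beside that transporter. Classical heavy chains are expressed by nearly all nucleated cells and present varied peptides to cytotoxic T cells, whereas nonclassical ones have narrower roles, and many genes of the pathway are induced by interferons.

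Each group was 1 library of pooled cells, so no test between groups was possible and no p-value is given. Intervals are exact 95% intervals that cover counting error only, and the spread between mice is unknown. The libraries held 1623 (KO aorta), 449 (WT aorta), 529 (KO lung) and 800 (WT lung) barcodes with 1034161 to 4483756 UMIs, where a UMI marks 1 captured RNA molecule, and any pair of libraries shared 0 to 2 barcodes. Of the cells with 500 or more UMIs and no more than 15% of them mitochondrial, 1525 of 1569 kept cells in the KO aorta, 395 of 404 in the WT aorta, 482 of 508 in the KO lung and 739 of 775 in the WT lung fell into endothelial-like clusters; in them all 10 endothelial markers were detected. Levels below are counts per 1e6 UMIs (CPM) summed over these cells, not divided by gene length. Pou5f1 itself had 1 UMI in the KO aorta, 0 in the WT aorta, 1 in the KO lung and 2 in the WT lung, so these counts do not check the genotype labels. Markers of leukocytes were close to absent: the 11 myeloid markers summed to 5.22 to 31.1 CPM with Ptprc (CD45) at 0 in all 4 libraries, and the 10 lymphocyte markers to 1.08 to 6.27 CPM with Cd3e and Ms4a1 at 0.

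The heavy chain genes of the K, D and Q regions have long runs of promoter sequence in common, shown here because they show how alike these genes are in sequence. RefSeq promoters (GRCm38.p6; 250 bases before to 50 after the gene start) were matched for all 10 genes. Capitals mark every run of at least 14 bases that was identical in H2-K1, H2-D1, H2-Q4, H2-Q6 and H2-Q7, or in all of these but H2-Q4, on the printed strand:
H2-K1: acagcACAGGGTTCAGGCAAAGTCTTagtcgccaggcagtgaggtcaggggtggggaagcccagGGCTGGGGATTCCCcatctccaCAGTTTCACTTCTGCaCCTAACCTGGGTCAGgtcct
H2-D1: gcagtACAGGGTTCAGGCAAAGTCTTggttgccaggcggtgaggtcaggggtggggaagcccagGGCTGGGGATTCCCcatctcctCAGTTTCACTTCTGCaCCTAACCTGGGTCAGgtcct
H2-Q4: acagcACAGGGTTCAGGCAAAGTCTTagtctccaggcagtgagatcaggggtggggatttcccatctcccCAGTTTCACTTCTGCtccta
H2-Q6: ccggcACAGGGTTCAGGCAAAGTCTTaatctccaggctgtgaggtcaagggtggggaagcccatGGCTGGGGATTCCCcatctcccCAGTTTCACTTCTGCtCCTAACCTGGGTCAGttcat
H2-Q7: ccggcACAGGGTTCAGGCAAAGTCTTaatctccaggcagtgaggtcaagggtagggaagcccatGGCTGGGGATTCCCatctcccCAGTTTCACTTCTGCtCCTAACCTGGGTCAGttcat
These windows are chr17:34000405-34000526 (minus strand) for H2-K1 and, on the plus strand, chr17:35262855-35262976 for H2-D1, chr17:35379391-35379480 for H2-Q4, chr17:35424609-35424730 for H2-Q6 and chr17:35438954-35439074 for H2-Q7.

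The 5 genes shared ACAGGGTTCAGGCAAAGTCTT and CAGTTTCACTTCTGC, the second of which holds letters of an interferon-stimulated response element. All but H2-Q4 shared GGCTGGGGATTCCC, which ends in the letters of a kappaB site, and CCTAACCTGGGTCAG. Searched on both strands of 32851 RefSeq promoters of the same length, these runs stood in 0.0183%, 0.0213%, 0.0152% and 0.0152% of them, in the order named. None of the 4 runs was in the promoter windows of H2-T22, H2-T23, B2m, Tap1 or Tapbp, and the runs did not overlap each other. The runs were taken from these genes' own promoters, which are themselves counted in the shares above (6, 7, 5 and 5 promoters, in the same order). The shares are thus a description of letters, not a measure of rarity elsewhere, and say nothing of which factors bind.

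The classical heavy chains and B2m were the most abundant of the 10 genes in every library. H2-D1 had 3821 CPM (3762 to 3880) in the KO aorta, against 3248 CPM (3134 to 3364) in the WT aorta, and 5734 CPM (5581 to 5890) in the KO lung, against 4614 CPM (4503 to 4727) in the WT lung. H2-K1 had 1458 CPM in the KO aorta, against 954 CPM in the WT aorta, and 2696 CPM in the KO lung, against 1902 CPM in the WT lung. Both genes were thus higher in KO than in WT in each tissue, and neither tissue's intervals overlapped. The ratio of KO over WT was 1.53 (1.42 to 1.64) in the aorta and 1.42 (1.34 to 1.497) in the lung for H2-K1. H2-D1 differed less, at 1.18 (1.13 to 1.22) in the aorta and 1.24 (1.198 to 1.29) in the lung. H2-K1 accordingly made up 27.6% of the classical UMIs in the KO aorta, against 22.7% in the WT aorta, and 32.0% in the KO lung, against 29.2% in the WT lung.

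**Figure D1:**
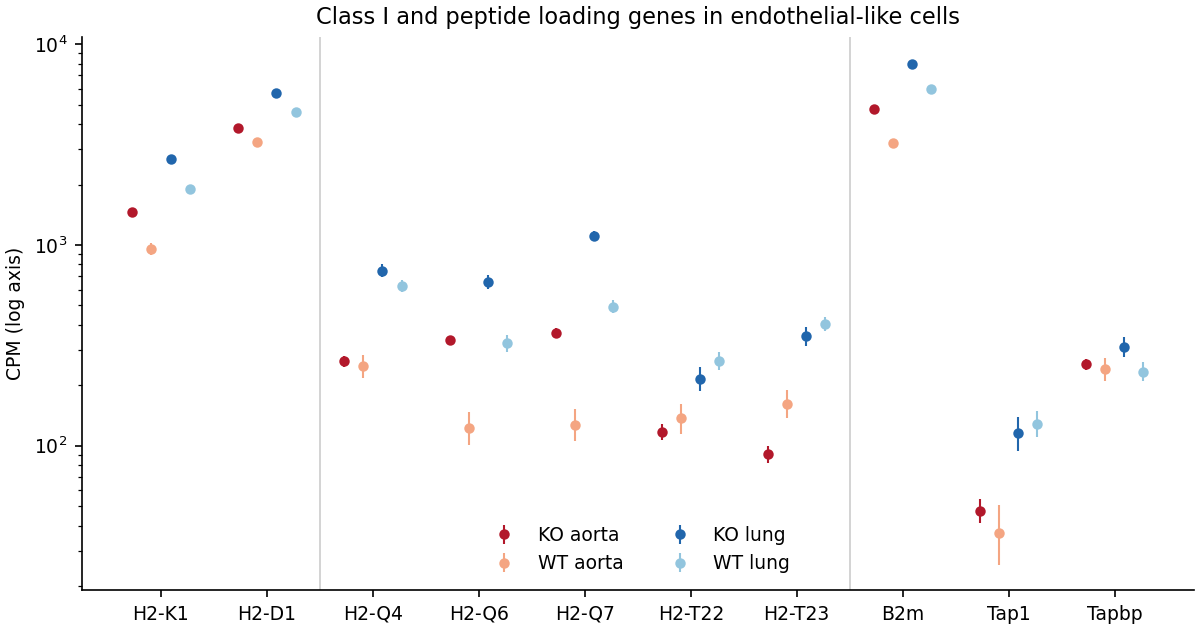
Level of each gene in the endothelial-like cells of each library (CPM, log axis); points are summed UMIs and bars exact 95% intervals for counting error, with classical heavy chains left, nonclassical in the middle and B2m, Tap1 and Tapbp right. H2-Q7 had 366 CPM in the KO aorta, against 127 in the WT aorta, and 1111 in the KO lung, against 492 in the WT lung.

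The nonclassical genes fell into 3 patterns. H2-Q6 and H2-Q7, members of the gene group that encodes the Qa-2 antigen, differed most between genotypes. H2-Q7 had 366 CPM (348 to 384) in the KO aorta, against 127 CPM (106 to 152) in the WT aorta, a ratio of 2.87 (2.39 to 3.48). In the lung H2-Q7 had 1111 CPM in KO cells, against 492 CPM in WT cells, a ratio of 2.26 (2.05 to 2.49). H2-Q6 followed it closely. Its level was 335 CPM in the KO aorta, against 122 CPM in the WT aorta (ratio 2.74, 2.27 to 3.34), and 652 CPM in the KO lung, against 323 CPM in the WT lung (ratio 2.02, 1.78 to 2.28). In the WT aorta 1 cell held 16.3% of the UMIs of H2-Q6 plus H2-Q7.

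H2-Q4, a further heavy chain gene of the Q region, differed less. It had 263 CPM in the KO aorta, against 249 CPM in the WT aorta (ratio 1.06, 0.920 to 1.22), and 746 CPM in the KO lung, against 627 CPM in the WT lung (ratio 1.19, 1.08 to 1.32), so that only the lung interval lay above 1. With the mean of CPM per cell in place of summed UMIs, the aortic log2 ratio of H2-Q4 was -0.11. Within aortic clusters its ratio ran from 0.634 to 2.17, so the pooled value does not stand for each vessel type.

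The T region genes pointed the other way. H2-T23 encodes Qa-1, which shows signal peptides of other class I chains to natural killer cell receptors. It had 90.4 CPM (81.6 to 100.0) in the KO aorta, against 162 CPM (137 to 189) in the WT aorta, a ratio of 0.559 (0.462 to 0.678). In the lung it had 352 CPM in KO cells, against 404 CPM in WT cells, a ratio of 0.872 with an interval that included 1 (0.759 to 1.0009). H2-T22, a ligand of some gamma delta T cells, had 117 CPM in the KO aorta, against 137 CPM in the WT aorta (ratio 0.857, 0.705 to 1.05), and 215 CPM in the KO lung, against 265 CPM in the WT lung (ratio 0.812, 0.681 to 0.967). When clusters were weighted alike the aortic log2 ratio of H2-T22 was 0.03, so its direction in the aorta was not settled.

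B2m, the partner of all 7 heavy chains, had 4778 CPM in the KO aorta, against 3215 CPM in the WT aorta (ratio 1.49, 1.43 to 1.54), and 7984 CPM in the KO lung, against 5997 CPM in the WT lung (ratio 1.33, 1.29 to 1.37). Per UMI of the 7 heavy chains there were 0.741 B2m UMIs in the KO aorta, against 0.643 in the WT aorta, and 0.694 in the KO lung, against 0.695 in the WT lung. B2m was therefore higher relative to the heavy chains in the KO aorta, while in the lung the intervals of this ratio overlapped (0.674 to 0.715 in KO, 0.676 to 0.715 in WT).

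Of the peptide loading genes, Tapbp was higher in KO in the lung beyond counting error, and the interval of its aortic ratio included 1. It had 255 CPM in the KO aorta, against 241 CPM in the WT aorta (ratio 1.06, 0.915 to 1.22), and 311 CPM in the KO lung, against 233 CPM in the WT lung (ratio 1.33, 1.13 to 1.57). Over alternative processing settings the lung log2 ratio of Tapbp ran from 0.10 to 0.43, so its size depends on the setting. Tap1 had 47.4 CPM in the KO aorta, against 36.5 CPM in the WT aorta (ratio 1.30, 0.901 to 1.91), and 115 CPM in the KO lung, against 129 CPM in the WT lung (ratio 0.895, 0.698 to 1.14). Both intervals of Tap1 included 1.

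**Figure D2:**
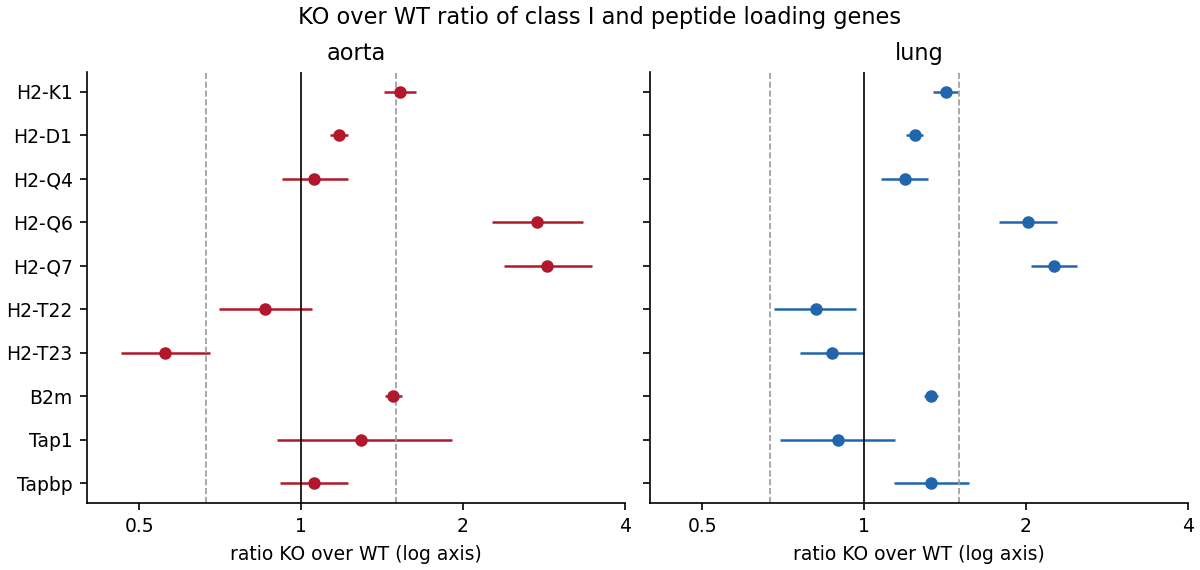
Ratio of KO over WT (log axis) for each gene in aorta and lung; points are ratios of CPM, bars exact 95% intervals for counting error, and dashed lines mark 1.5-fold higher and lower. H2-Q6 and H2-Q7 lie between 2.02 and 2.87 in both tissues, and H2-T23 lies at 0.559 in the aorta.

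Genes that averaged 50 CPM or more over a pair of libraries, with 30 or more UMIs between them, were compared across the whole table, and those at least 1.5-fold apart were counted. In the aorta 9 of the 10 genes passed this filter, all but Tap1; 3 of them (H2-K1, H2-Q6 and H2-Q7) were at least 1.5-fold higher in KO, against 2.90% of all 3001 genes compared, and 1 (H2-T23) was at least 1.5-fold lower, against 2.47%. In the lung all 10 passed; 2 (H2-Q6 and H2-Q7) were at least 1.5-fold higher in KO, against 2.54% of all 3350 genes, and 0 were at least 1.5-fold lower, against 1.55%. The median log2 ratio of the genes compared was 0.23 in the aorta and 0.36 in the lung, beside 0.03 and 0.02 over all genes. The genes were listed with these contrasts known, so nothing is read from these shares. In the aorta, H2-K1 was below 1.5-fold without the lymphatic-like cluster (log2 ratio 0.55) and without cells holding class II UMIs (0.58), and B2m passed 1.5-fold in 6 settings, among them TMM scaling (0.65) and clusters weighted alike (0.67).

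The nonclassical share of heavy chain UMIs sums these patterns. It was 18.2% (17.7 to 18.6) in the KO aorta, against 15.9% (14.9 to 17.0) in the WT aorta, and 26.7% (25.9 to 27.6) in the KO lung, against 24.5% (23.7 to 25.2) in the WT lung. Its order between genotypes was not the same in all aortic clusters, as set out by vessel type below. Its makeup differed more than its size: H2-Q6 and H2-Q7 were 59.8% of the nonclassical UMIs in the KO aorta, against 31.3% in the WT aorta, and 57.3% in the KO lung, against 38.6% in the WT lung. With the H2-Q genes left out the order turned round, and the share of H2-T22 and H2-T23 was 3.78% in the KO aorta, against 6.64% in the WT aorta, and 6.31% in the KO lung, against 9.31% in the WT lung.

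Counts of these genes carry a limit from shared sequence. Of the 50-base stretches in the last 300 bases of the annotated transcripts (GENCODE M21), H2-Q6 shared 49.4% with other genes that had a row in the tables, H2-Q4 28.5%, H2-D1 19.4%, H2-K1 14.1% and H2-T23 13.7%, whereas for H2-Q7 and B2m this was 0%. The largest partner of H2-Q6 was H2-Q7, whose transcripts held 27.7% of its stretches, and they also held 9.19% of those of H2-D1 and 6.57% of those of H2-K1. H2-T22 shared 26.0% with genes lacking a row. For H2-Q4 and H2-T23 the largest partners with a row lay outside class I. These were Olfr1238 and Olfr552 (11.6% each) for H2-Q4, beside 5.78% for H2-Q6, and Rab33b (9.86%) for H2-T23. A pipeline that drops reads with several matches would lose counts of H2-Q6 in particular, so its level, and how its UMIs divide from those of H2-Q7, is uncertain. Which end of the RNA was read, and the annotation used for counting, were not stated in those sources that were used here. H2-T22 and H2-T23 also overlap an antisense gene, as do H2-Q4, B2m, Tap1 and Tapbp.

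Levels in the aorta were below those in the lung for nearly all of the genes, in both genotypes. In WT cells 8 of the 10 genes were at least 1.5-fold lower in the aorta, all but H2-D1 and Tapbp, against 24.9% of the 3234 genes compared, and 0 were higher, against 14.7%. In KO cells 9 of 10 were at least 1.5-fold lower in the aorta, all but Tapbp, against 25.9% of 3269 genes, and 0 were higher, against 15.9%. The median log2 ratio of aorta over lung was -1.16 in WT and -0.92 in KO cells, beside -0.09 over all genes in each. H2-D1 in KO cells stood at the edge of the count, with a ratio of 0.666, and was past it in some settings and not in others.

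H2-Q4, H2-Q7 and H2-T23 differed more between the tissues than the classical genes did. H2-Q7 had a ratio of aorta over lung of 0.329 (0.304 to 0.357) in KO and 0.259 (0.212 to 0.314) in WT cells, and H2-T23 one of 0.257 in KO and 0.401 in WT cells. H2-K1 had 0.541 in KO and 0.502 in WT cells, and H2-T22 was close to it at 0.544 in KO and 0.516 in WT cells. H2-Q6 was near H2-K1 in KO cells, at 0.514, and lower in WT cells, at 0.378. Tap1 had 0.411 in KO and 0.284 in WT cells. Tapbp was the exception, at 0.818 (0.718 to 0.935) in KO and 1.03 (0.870 to 1.23) in WT cells. Tissue, library and the naming of rows in the files cannot be told apart. TMM scaling moved the median of all genes by 0.20 on the log2 scale in the KO contrast, and with it H2-D1 and B2m were no longer 1.5-fold lower there (log2 ratios -0.39 and -0.55).

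The differences between genotypes were next followed through the vessel types. Cells were clustered within each tissue without the class I, class II and related genes, and 7 clusters of the aorta and 7 of the lung held at least 20 cells in both libraries. H2-Q6 and H2-Q7 together were higher in KO in all 7 aortic clusters, with ratios of 2.26 to 5.87, and in all 7 lung clusters, with ratios of 1.81 to 2.89, and every interval lay above 1. H2-K1 and B2m were higher in KO in 7 of 7 clusters of each tissue, and H2-D1 in 6 of 7. H2-Q4 was higher in KO in 5 of 7 aortic clusters, with 2 intervals above 1 and 1 below. In the lung H2-Q4 was higher in KO in 6 of 7 clusters, with 1 interval above 1 and 0 below. H2-T23 was higher in KO in 1 of 7 aortic and 2 of 7 lung clusters, and 3 aortic intervals and 1 lung interval lay below 1. H2-T22 was higher in KO in 4 of 7 aortic and 2 of 7 lung clusters, and all of its intervals included 1. Clusters of a tissue come from the same libraries, so they are not replicates.

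**Figure D3:**
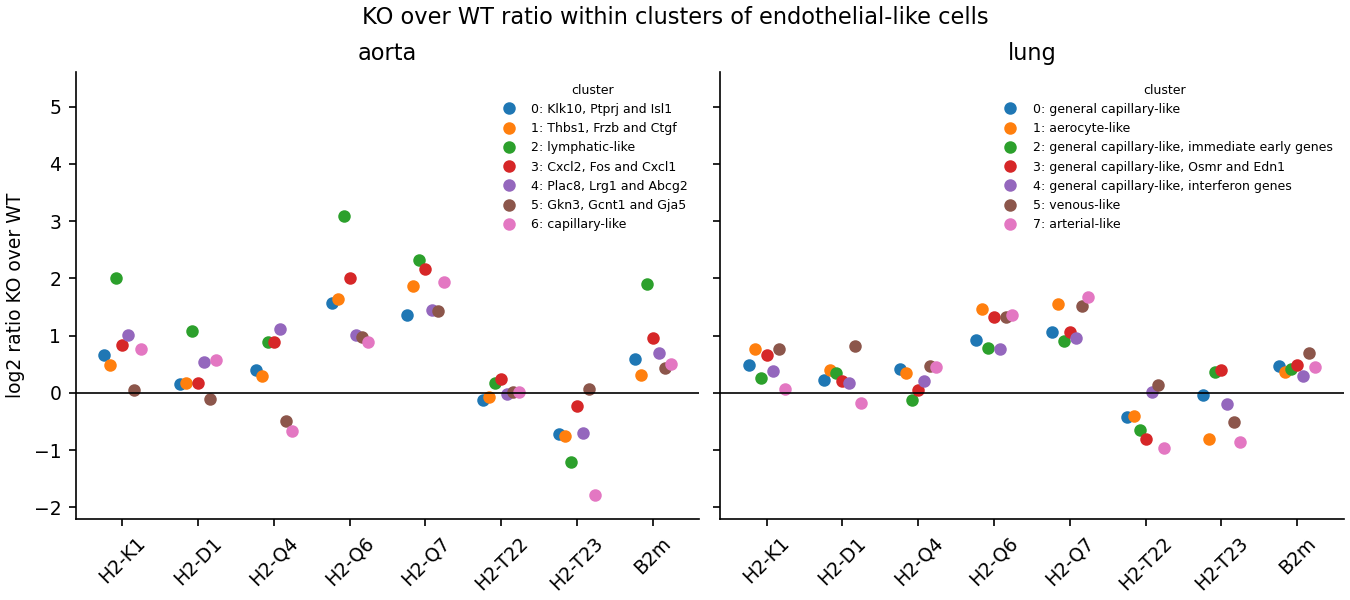
Log2 ratio of KO over WT for the 7 heavy chains and B2m within each cluster holding at least 20 cells in both libraries, 7 in each tissue; each colour is 1 cluster, named from markers or leading genes. H2-Q6 and H2-Q7 lie above 0 in every cluster, and H2-T23 above 0 in 1 aortic and 2 lung clusters.

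Among aortic clusters with at least 20 cells in a library, the lymphatic-like cluster stood lowest for H2-D1, H2-K1 and B2m in both genotypes. H2-D1 there had 3178 CPM in KO, against 1509 CPM in WT cells, H2-K1 had 1101 CPM in KO, against 273 CPM in WT cells, and B2m had 3721 CPM in KO, against 998 CPM in WT cells. These were the widest genotype ratios of the 3 genes in the aorta, at 2.11 for H2-D1, 4.03 for H2-K1 and 3.73 for B2m, and they rest on 39 WT cells. H2-T23 in the lymphatic-like cluster went the other way, with 140 CPM in KO, against 321 CPM in WT cells (ratio 0.435, 0.270 to 0.717). The aortic capillary-like cluster differed in its nonclassical genes. H2-Q4 had 451 CPM in its KO cells, against 712 CPM in its WT cells (ratio 0.634, 0.442 to 0.912), and H2-T23 had 105 CPM in KO, against 362 CPM in WT cells (ratio 0.290, 0.150 to 0.546). H2-Q6 plus H2-Q7 in the same cluster had 612 CPM in KO, against 237 CPM in WT cells. The other 3 aortic clusters held 7, 10 and 18 WT cells, too few for the counts above. In the cluster led by Col8a1, Tubb3 and Selp, with 10 WT cells, the order was the reverse: H2-K1 had 1877 CPM in KO, against 2832 CPM in WT cells, H2-D1 4283 CPM in KO, against 6002 CPM in WT cells, and B2m 5615 CPM in KO, against 9199 CPM in WT cells, with intervals apart. H2-Q6 plus H2-Q7 there had 952 CPM (882 to 1025) in KO, against 1143 CPM (831 to 1535) in WT cells. In the whole WT aorta, the highest cell held 8.38% of B2m UMIs, 6.12% of heavy chain UMIs and 16.3% of H2-Q6 plus H2-Q7 UMIs. The cluster of that cell was not looked up, and 1 such cell could set the values of 10 WT cells. No order is therefore read from this cluster.

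In the lung, the sum of the 7 heavy chains was highest in general capillary-like clusters. It came to 12634 CPM in KO and 9672 CPM in WT cells of the main general capillary-like cluster. The aerocyte-like cluster, the wide flat cells of the alveolar wall, was highest for B2m, at 10819 CPM in KO and 8428 CPM in WT cells. In KO cells it was also highest for H2-D1, at 6637 CPM against 5879 CPM in the main general capillary-like cluster, but its H2-Q6 plus H2-Q7 level was 1196 CPM in KO, against 418 CPM in WT cells. It was the lung cluster where H2-T23 was lower in KO beyond counting error, with 301 CPM in KO, against 526 CPM in WT cells (ratio 0.574, 0.423 to 0.769). Lymphatic-like cells of the WT lung were again low, with 2562 CPM of H2-D1 and 1108 CPM of H2-K1; the KO lung held 19 of them, below the number set for a comparison.

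**Figure D4:**
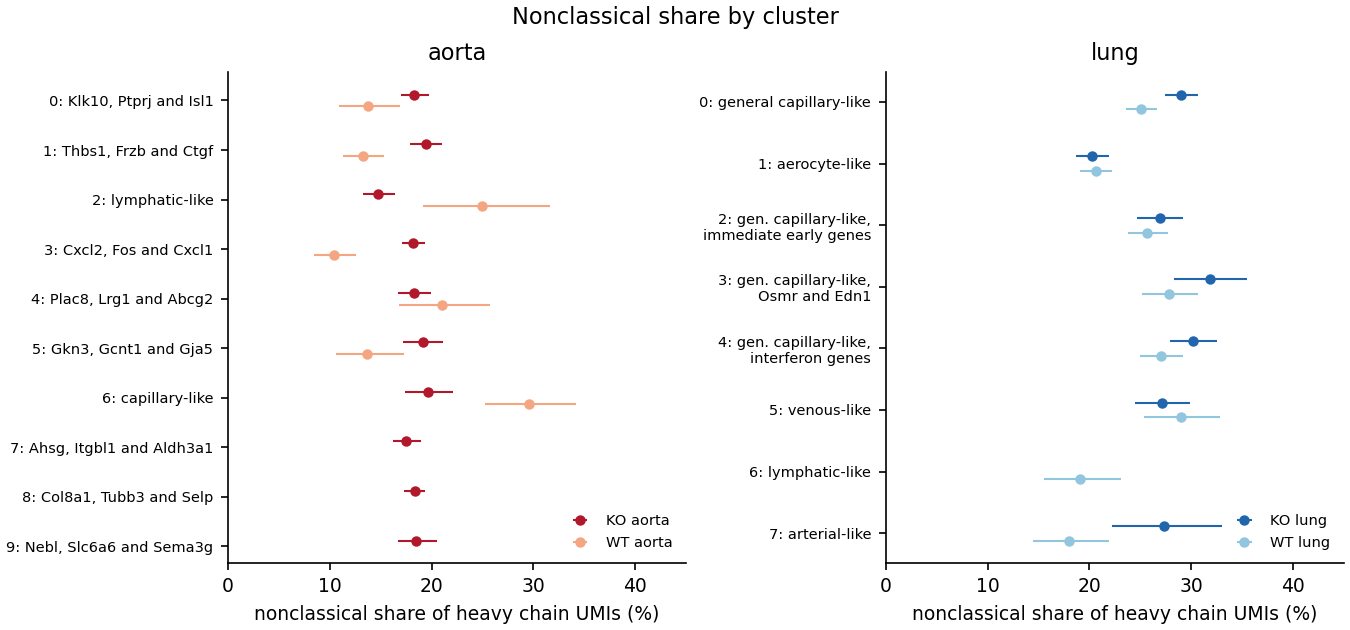
Nonclassical share of heavy chain UMIs (%) by cluster in KO and WT cells, for clusters with at least 20 cells in that library; bars are exact 95% intervals for counting error. In the aortic capillary-like cluster the share was 19.7% in KO and 29.6% in WT cells, and in the cluster led by Cxcl2, Fos and Cxcl1 it was 18.2% in KO and 10.43% in WT cells.

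The nonclassical share ranged less widely across clusters of the KO aorta than of the WT aorta, among clusters with at least 20 cells. The WT values rested on fewer heavy chain UMIs, 200 to 1142 per cluster, against 1148 to 5462 in KO. In KO cells the share ran from 14.8% (13.2 to 16.4) in the lymphatic-like cluster to 19.7% (17.4 to 22.1) in the capillary-like cluster, with intervals apart. In WT cells it ran from 10.43% (8.50 to 12.6) in the cluster led by Cxcl2, Fos and Cxcl1 to 29.6% (25.2 to 34.2) in the capillary-like cluster. In the lung the aerocyte-like share was 20.3% in KO and 20.6% in WT cells, and the share of the arterial-like cluster was 27.4% (22.2 to 33.1) in KO, against 17.97% (14.5 to 21.9) in WT cells.

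A lung cluster of general capillary-like cells led by interferon-induced genes gave a comparison within each library. Against the other general capillary-like clusters, Isg15, an interferon-induced ubiquitin-like protein, was 7.38-fold higher in KO and 4.73-fold higher in WT cells. The 7 heavy chains together were 1.08-fold (1.02 to 1.15) higher in KO and 1.14-fold (1.08 to 1.204) higher in WT cells. H2-Q4 was the heavy chain whose ratio lay above 1 beyond counting error in both libraries, at 1.34 (1.08 to 1.64) in KO and 1.30 (1.08 to 1.57) in WT cells. Tap1 was 1.80-fold higher (1.201 to 2.66) in WT cells and 1.04-fold (0.515 to 1.97) in KO cells. Isg15 is among the genes that lead this cluster, so its ratio is high by selection. Class I genes had no part in forming the clusters, so the size of their ratios cannot be weighed against that of Isg15.

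Over single cells, class I was nearly universal. The 7 heavy chains had a median of 5758 CPM per cell in the KO aorta, against 4184 CPM in the WT aorta, and 10699 CPM in the KO lung, against 8142 CPM in the WT lung, and 0.812% to 2.28% of cells had no heavy chain UMI. Cells with at least 1000 UMIs were thinned to that number, which left out 142 cells of the KO aorta, 72 of the WT aorta, 108 of the KO lung and 130 of the WT lung as too shallow. Of the thinned cells, 41.4% in the KO aorta held a UMI of H2-Q6 or H2-Q7, against 21.1% in the WT aorta, and 77.0% in the KO lung, against 50.9% in the WT lung. The same deeper cells before thinning gave 67.2% in the KO aorta, against 39.6% in the WT aorta, and 88.8% in the KO lung, against 70.1% in the WT lung. Over all endothelial-like cells the share was 63.7% in the KO aorta, against 33.9% in the WT aorta, and 84.4% in the KO lung, against 66.4% in the WT lung. No cell type free of class I was at hand to measure the background from free RNA.

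Across the 32 groups formed by library and cluster, B2m (Pearson r 0.91), H2-Q7 (0.91), H2-Q6 (0.89) and H2-Q4 (0.82) followed H2-K1 plus H2-D1 closely on the scale log2(CPM + 10). H2-T22 (0.39) and H2-T23 (0.26) did not. Of 3220 other genes the 5 most alike were Tspan7 (0.86), Adgre5 (0.85), Psmb10 (0.81), Psmb9 (0.81) and Ddah2 (0.80). The groups share libraries and depth, so these values are a description. Psmb9 and Psmb10 encode catalytic subunits of the immunoproteasome, which cuts peptides for class I.

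Of 12 genes of peptide supply and loading, 10 were compared in each tissue and 0 were 1.5-fold apart in either, while 94.6% of all genes compared in the aorta and 95.9% in the lung lay within 1.5-fold. Their ratio of KO over WT lay above 1 for 8 in the aorta, where Tap2, the partner of Tap1, was highest at 1.33 and the tapasin-related Tapbpl lowest at 0.670, and for 7 in the lung, where the chaperone Calr was highest at 1.41 and Canx lowest at 0.922. Over all genes compared, 54.3% in the aorta and 54.2% in the lung had a ratio above 1. Of 19 regulators of class I, 5 were compared in the aorta and 10 in the lung, and 0 were 1.5-fold apart; Irf1, an interferon-induced transcription factor, had a ratio of 0.741 (0.604 to 0.914) in the aorta, and Irf7 had 0.684 (0.468 to 0.985) in the lung. Of 22 other class I heavy chains, 15 had a row and 11 had no UMI in either library of a tissue. H2-M3, which presents formylated peptides, had 44.2 CPM in the KO lung, against 82.1 CPM in the WT lung (ratio 0.538). Cd74, the class II invariant chain, had 656 CPM in the KO lung, against 142 CPM in the WT lung. In the aorta Cd74 had 266 CPM in KO, against 135 CPM in WT cells, but 90.7% of its UMIs in the WT aorta lay in 1 cell, so no ratio is read from it. The class II chain H2-Ab1 had a ratio of 2.33 (1.92 to 2.83) in the lung and 1.22 (0.893 to 1.70) in the aorta, where 1 cell again held most of the WT UMIs (81.3%).

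All heavy chain genes, Tap1 and Tapbp lie on mouse chromosome 17, as does Pou5f1, the gene deleted in KO cells; B2m lies on chromosome 2. By GENCODE M21 on mm10, the gene H2-Q7 spans chr17:35439155-35443773 and starts at -66.9 kb from the start of Pou5f1, H2-Q6 starts at -81.2 kb, H2-Q4 at -126 kb and H2-D1 at -243 kb. H2-T23 and H2-T22 start on the other side, at 527 kb and 537 kb. Farther away are Tap1 at -1318 kb, H2-K1 at -1506 kb and Tapbp at -1590.1 kb. H2-Q7 and H2-Q6 were the genes nearest to Pou5f1 among those compared.

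**Figure D5:**
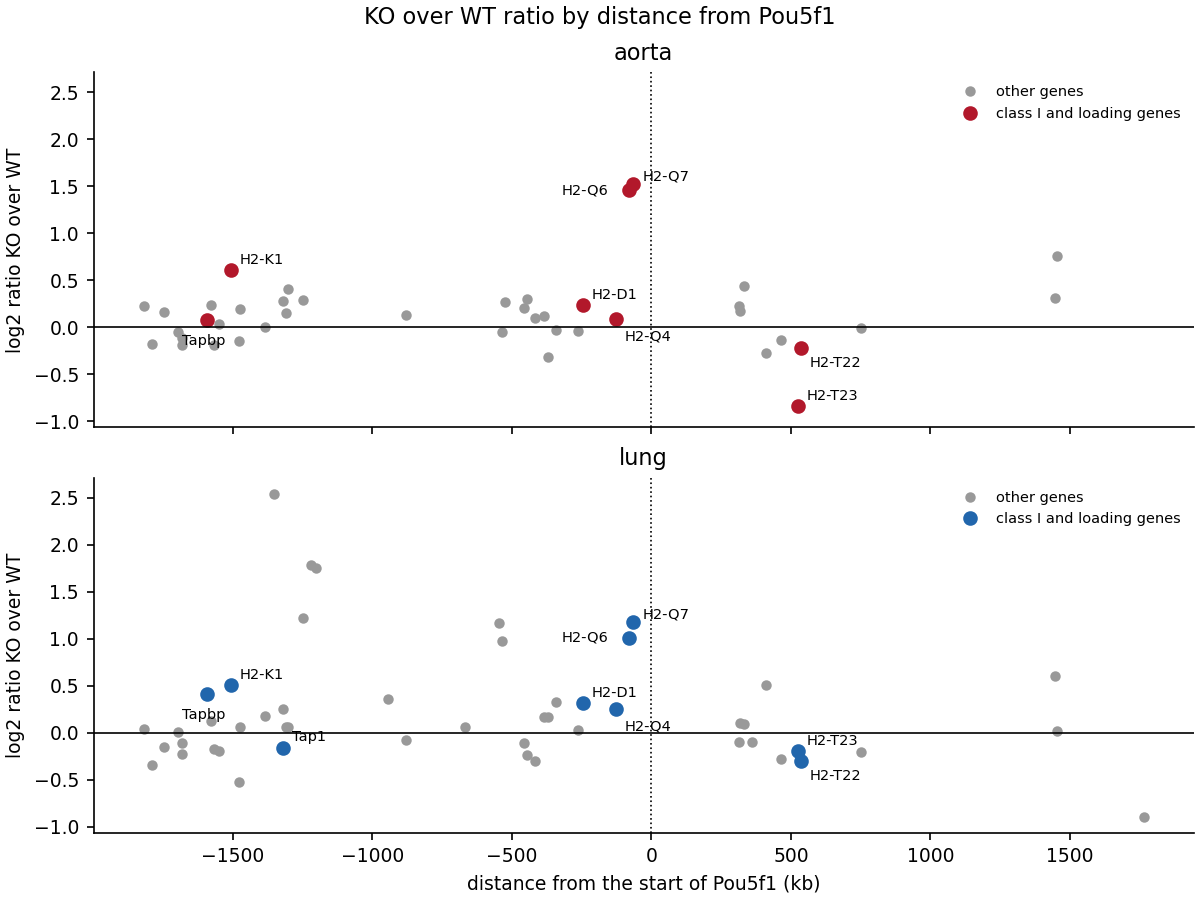
Log2 ratio of KO over WT against the distance between gene starts and the start of Pou5f1 (kb) for every gene compared within 2 Mb, in aorta (top) and lung (bottom). H2-Q7 and H2-Q6, at -66.9 and -81.2 kb, have log2 ratios of 1.52 and 1.46 in the aorta and 1.17 and 1.01 in the lung.

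Within 2 Mb of Pou5f1, 34 other genes were compared in the aorta and 41 in the lung. In the aorta 1 of them, Znrd1, was at least 1.5-fold higher in KO (1.69) and 0 were lower, beside 2.90% and 2.47% of all genes compared, with a median log2 ratio of 0.12. In the lung 7 were at least 1.5-fold higher (H2-DMb1, H2-Ab1, H2-Aa, H2-Eb1, Hspa1b, Hspa1a and Ppp1r11) and 1 lower (H2-M3), beside 2.54% and 1.55% of all genes, with a median log2 ratio of 0.06. H2-Q4, between H2-Q6 and H2-D1 on the chromosome, had log2 ratios of 0.08 in the aorta and 0.25 in the lung. Whether position bears on the KO over WT values was not tested.

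Levels of other cell types moved beside some of these values. The 7 fibroblast markers reached 1364 CPM together in endothelial-like cells of the KO aorta, against 573 CPM in the WT aorta, and the smooth muscle markers 959 CPM in KO, against 635 CPM in WT cells. Erythroid markers, mainly haemoglobin, summed to 9.23 CPM in the KO aorta, against 2540 CPM in the WT aorta, and to 83.0 CPM in the KO lung, against 0.707 CPM in the WT lung. Lung epithelial markers summed to 443 CPM in the KO lung, against 42.4 CPM in the WT lung. Their part in the class I values was not tested. With mitochondrial, ribosomal protein and haemoglobin genes left out of the totals, and in cells without leukocyte UMIs, the same 3 genes were at least 1.5-fold higher in the KO aorta and the same 2 in the KO lung. Neither setting acts on the fibroblast, smooth muscle or lung epithelial markers. The share of all genes past 1.5-fold in these settings is not given here, so nothing is read from these counts.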

How the data were processed

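The 4 deposited tables (KO aorta, WT aorta, KO lung, WT lung) hold raw counts of UMIs for each gene in each cell. The submitters' processing notes name Cell Ranger and the build mm10, with no version. Each table had 31053 rows, named by symbol in the aorta and by Ensembl identifier in the lung; 30498 aortic and 30934 lung rows matched GENCODE M21, and rows of a repeated symbol were summed.

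Cells with at least 500 UMIs and at most 15% mitochondrial UMIs were kept, which left out 54 (KO aorta), 45 (WT aorta), 21 (KO lung) and 25 (WT lung) barcodes. Scrublet called 4, 4, 7 and 6 doublets, which were kept and left out in an alternative. Cells were clustered per tissue in scanpy 1.11.5 (2000 variable genes, 30 components, 15 neighbours, Leiden resolution 1) without H2, B2m, Tap, Tapbp, Cd74 or immunoproteasome genes. A cluster counted as endothelial-like when its 5 most detected endothelial markers averaged at least 50% detection. Names come from markers and can differ from the authors' own. Aortic clusters led by Klk10 and by Thbs1 had a marker of another class (Mfap5, Krt18) among their leading genes against all other cells. Values without these aortic clusters were computed. A small lung cluster led by Fabp4, also counted as endothelial-like, had the smooth muscle marker Tagln among its leading genes.

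UMIs were summed per library. CPM have exact Poisson, ratios exact conditional and shares Clopper-Pearson 95% intervals. Each library's endothelial-like cells held 928201 to 4223637 UMIs, so 3 counts, the limit that a count of 0 allows, were 0.710 to 3.23 CPM. Ratio and interval code was tested on simulated data. TMM factors came from edgeR 4.0.16. Named genes are the 10 genes, the 2 highest and 2 lowest of each list where described, neighbours of Pou5f1 past 1.5-fold and the 5 most alike genes. The genes and lists were chosen with earlier results of these data known.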

Additional observations from a re-analysis of the deposited data

Results flagged for a closer look

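Tap1 was flagged because its direction differed between the tissues: it was higher in KO than in WT in the aorta and lower in the lung, a difference of 0.53 between the log2 ratios of 0.37 in the aorta and -0.16 in the lung. The difference was not tested, both intervals included no change, and the aortic value rests on 200 UMIs in KO and 35 UMIs in WT cells.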

How the results depend on the processing

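Counting genes at 2-fold in place of 1.5-fold left 0 of the 10 genes lower in the KO aorta than in the WT aorta, 5 lower in the WT aorta than in the WT lung and 4 lower in the KO aorta than in the KO lung. The share of all genes past 2-fold is not given here, so nothing is read from these counts. The nonclassical share moved beyond counting error in these settings. With the H2-Q genes left out it was 3.78% (KO aorta), 6.64% (WT aorta), 6.31% (KO lung) and 9.31% (WT lung), by construction. Without cells holding class II UMIs it was 17.5% (KO aorta) and 25.04% (KO lung). With other heavy chains added it was 18.8% (KO aorta) and 25.4% (WT lung). With the mean of CPM per cell it was 17.2% (WT aorta) and 28.4% (KO lung), with clusters weighted alike 17.3% (WT aorta) and 27.7% (KO lung), and without the aortic clusters led by Klk10 and Thbs1 17.3% (WT aorta). The cause of these moves was not tested.

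In the other 168 pairings of a count or share with a setting, the value kept within 1.5 times or counting error, and no called value changed sign. Outside these counts and shares, 67 values moved and 513 did not. H2-Q7 kept log2 ratios of 1.46 to 1.84 in the aorta and 1.01 to 1.21 in the lung, H2-Q6 1.39 to 1.63 and 0.85 to 1.08, and H2-T23 -0.97 to -0.76 in the aorta. Settings without the aortic clusters above, the lymphatic-like clusters, the interferon-led lung cluster and cells with class II UMIs were chosen after seeing the data. No paired analysis was possible because each group was 1 library and the labels give no replicate numbers; for the same reason no replicate could be left out. Depth limits Tap1 and the values of small WT aortic clusters most.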
